A study of Mus musculus with 12 samples.

Results

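The genes described here are the detoxification enzymes of the mouse colon: cytochromes P450 of the Cyp2 and Cyp3a groups, the carboxylesterases Ces1 and Ces2, the aldehyde dehydrogenases Aldh1a, the UDP-glucuronosyltransferases Ugt1a and Ugt2, the glutathione S-transferases Gsta, Gstm, Gstp, Gstt and Gsto, and the sulfotransferases Sult. Membership went by gene symbol, without pseudogene names, under a rule set with earlier results of these data known. Of the 22377 genes listed in the deposited table, 109 met the rule, in 13 families. Polyadenylated RNA from mouse colon gave 12 sequenced libraries, 4 labelled control, 4 labelled DSS and 4 labelled FGF1. DSS is dextran sulfate sodium, a polymer given to mice to injure the lining of the colon, and FGF1 is fibroblast growth factor 1, a secreted growth factor whose recombinant form was given to mice with bowel inflammation according to the design text. Whether mice of the FGF1 group were also given DSS is not stated in the labels, nor are strain, genotype, sex, age, dose, duration or whether the samples came from separate animals, so each p-value measures the spread between these samples, which may be technical. All values are FPKM, the fragments of a transcript scaled for its length and for the library's total, so levels can be compared between genes. A gene's value is the sum over its listed transcripts.

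Detoxification runs in steps. Phase I enzymes, such as the cytochromes P450 and the carboxylesterases, expose or add a reactive group on a foreign or internally made lipophilic compound, and phase II enzymes couple that group to glucuronic acid, glutathione or sulfate so that transporters can carry the product out of the cell. In the colon the surface epithelium meets plant compounds, drugs and bacterial metabolites, and many of these genes are under the control of ligand-activated receptors such as PXR, CAR and AHR, of the stress factor NRF2, and of the intestinal factor HNF4A.

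The tissue label was checked against epithelial markers. Epcam lay between 661 and 965 FPKM, Krt8 between 1440 and 2290 and Cdh1 between 153 and 201 in the 12 libraries, and none of these 3 genes passed the test in any comparison. Of all 18 epithelial markers tested, 1 was higher in DSS than in control (Lgals4, an epithelial galectin, adjusted p 0.0379, limma), 15 had positive log2 fold changes and 6 had an unadjusted p under 0.05. In FGF1 against control none was called (limma), all 18 were positive and 5 had an unadjusted p under 0.05. Of all 12578 genes tested, 3483 and 1753 had an unadjusted p under 0.05 in the same 2 comparisons. The median log2 fold change of these markers was 0.22 and 0.25 in the 2 comparisons, which share the controls, beside −0.07 and −0.04 for all genes. Libraries differed more in the muscle and connective tissue they held. The summed FPKM of 15 smooth muscle genes ran from 3280 to 10100 in control, from 782 to 2570 in DSS and from 1480 to 8710 in FGF1, highest in control 3. That of 16 fibroblast and matrix genes ran from 478 to 713 in control, from 34.4 to 188 in DSS and from 206 to 520 in FGF1, so that DSS did not overlap either other group. The 7 posterior Hox genes, listed as markers of distal colon position, summed to 7.9 to 35.8 FPKM in control. Their sum was 1.68 to 4.46 in DSS and 4.75 to 20.3 in FGF1, highest in control 3 and FGF1 3 within their groups. DSS again overlapped neither group, and 3 of the 7 stayed under 1 FPKM in every library. Of 10 small intestine markers, 5 were tested and none was called in any comparison (limma). The mean log2(FPKM + 1) of those 5 was 3.38 to 3.78 in control, 3.96 to 4.09 in DSS and 3.2 to 3.51 in FGF1. DSS thus lay above both other groups, although the summed FPKM of all 10 overlapped. A difference in the position sampled was not tested. All 16 fibroblast genes, 8 of 9 endothelial genes and 4 of 15 smooth muscle genes tested were lower in DSS than in control (limma, adjusted p under 0.05). Of 24 absorptive colonocyte markers 7 were higher, and of 14 goblet cell markers 1 was higher and 5 were lower. Of 15 leukocyte markers tested 5 were lower and none was higher. None of 13 markers of crypt base and cycling cells or of 10 adipocyte markers was called. Over all genes tested 2.23% were higher and 10.1% lower. Of 12 liver markers, which would point to another rich source of these enzymes, 8 stayed under 1 FPKM in every library. The other 4 were tested and not called in any comparison (limma), among them Tat at 5.88 to 19.9 FPKM. In bulk tissue, fewer cells of a type and less RNA per cell cannot be told apart. A library listed 45795 to 54313 transcripts.

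Of the 109 members, 63 were tested, with 12578 genes in all, because 4 or more libraries gave them an FPKM of 1 or higher. The other 46 did not reach that level, the highest of them by mean being Ugt1a5 at 3.57 FPKM, a mean that rests on a single library described below. Tested members numbered 15 of 35 Cyp2, 3 of 7 Cyp3a, 4 of 8 Ces1, 5 of 7 Ces2, 3 of 4 Aldh1a, 4 of 9 Ugt1a, 5 of 8 Ugt2, 4 of 4 Gsta, 7 of 7 Gstm, 3 of 3 Gstp, 3 of 4 Gstt, 1 of 2 Gsto and 6 of 11 Sult genes.

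Promoter sequences are shown for 3 cytochrome P450 genes: Cyp2d26 and Cyp3a13, the pair with the largest rises described below, and Cyp2c55, the most abundant member. They are taken from RefSeq on build GRCm38.p6, read 5′ to 3′ along the gene's strand up to the base before the annotated gene. Cyp2c55 is at chr19:39006769-39007018 on the plus strand, Cyp2d26 at chr15:82794295-82794495 on the minus strand, and Cyp3a13 at chr5:137921620-137921869 on the minus strand. Capitals mark the letters CAAAGT (the HNF4 core), read on either strand.
Cyp2c55: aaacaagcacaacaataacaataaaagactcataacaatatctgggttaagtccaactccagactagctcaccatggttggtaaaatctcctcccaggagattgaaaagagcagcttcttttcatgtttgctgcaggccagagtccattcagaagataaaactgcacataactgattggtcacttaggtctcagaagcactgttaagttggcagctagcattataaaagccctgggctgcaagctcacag
Cyp2d26: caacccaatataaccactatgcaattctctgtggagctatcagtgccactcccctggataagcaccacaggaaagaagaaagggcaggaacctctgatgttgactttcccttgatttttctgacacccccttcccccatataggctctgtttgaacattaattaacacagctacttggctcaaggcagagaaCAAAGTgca
Cyp3a13: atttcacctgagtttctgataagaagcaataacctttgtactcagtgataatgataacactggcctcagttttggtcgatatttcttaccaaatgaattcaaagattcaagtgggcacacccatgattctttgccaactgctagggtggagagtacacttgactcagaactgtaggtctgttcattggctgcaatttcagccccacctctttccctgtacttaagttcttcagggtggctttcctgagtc

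Of the 3, Cyp2d26 alone held these letters. Of the 109 members, 96 had a promoter in the RefSeq table, as had 52 of the 63 tested. Within the 250 bases before the start, on both strands, CAAAGT was found in 16 of those 52 promoters, or 30.8%, against 12.5% of 27025 genes' promoters of the same length. The 16 included the esterases Ces2a, Ces2e and Ces2g, and the cytochromes Cyp2c65, Cyp2c66, Cyp2c68, Cyp2d26, Cyp2j9, Cyp3a25 and Cyp3a44. The rest were the glutathione transferases Gstm1, Gstm3, Gstm5, Gstp1 and Gstp2 and the sulfotransferase Sult2b1. AGGTCA, the core bound by many nuclear receptors, was in 9 of 52 (17.3% against 13.8%), 5 of them in the Ugt genes Ugt1a7c, Ugt2b5, Ugt2b35, Ugt2b36 and Ugt2b38, and AGTTCA, the core typical of PXR, was in 4 of 52 (7.69% against 11.9%). The AHR core GCGTG was in 10 of 52 (19.2% against 28.2%), the antioxidant response element core TGACNNNGC in 3 (5.77% against 10.1%) and the CDX core TTTATG in 6 (11.5% against 11.1%). AGGTCA on the opposite strand can share the letters TGAC with the antioxidant core, and none of the 6 motifs lies within another. Neither Cyp3a13 nor Cyp2c55 held any of these 6 motifs within its 250 bases, and Cyp2d26 held the HNF4 letters only. Related genes share ancestry, so the promoters are not independent, and a match describes letters, not a bound site. The 27025 promoters were not matched to those of the members in base composition, and its part in these shares was not tested.

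Members together held between 0.805% of the listed FPKM (control 3) and 1.93% (control 2). Their summed FPKM was 6430, 7240, 2900 and 4460 in control, 4730, 5150, 6090 and 6090 in DSS, and 5820, 4030, 3490 and 4390 in FGF1, so that the groups overlapped. Cyp2 genes made up 37.6% of it, Ces2 10.7%, Gstp 10.6%, Sult 9.47% and Gsto 7.94%. A few enzymes carried most of each family: Gsto1 held 99.9% of Gsto FPKM, Cyp3a13 86.3% of Cyp3a, Ugt2b34 79.4% of Ugt2, Gstp1 78.3% of Gstp and Cyp2c55 77.1% of Cyp2.

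**Figure D1:**
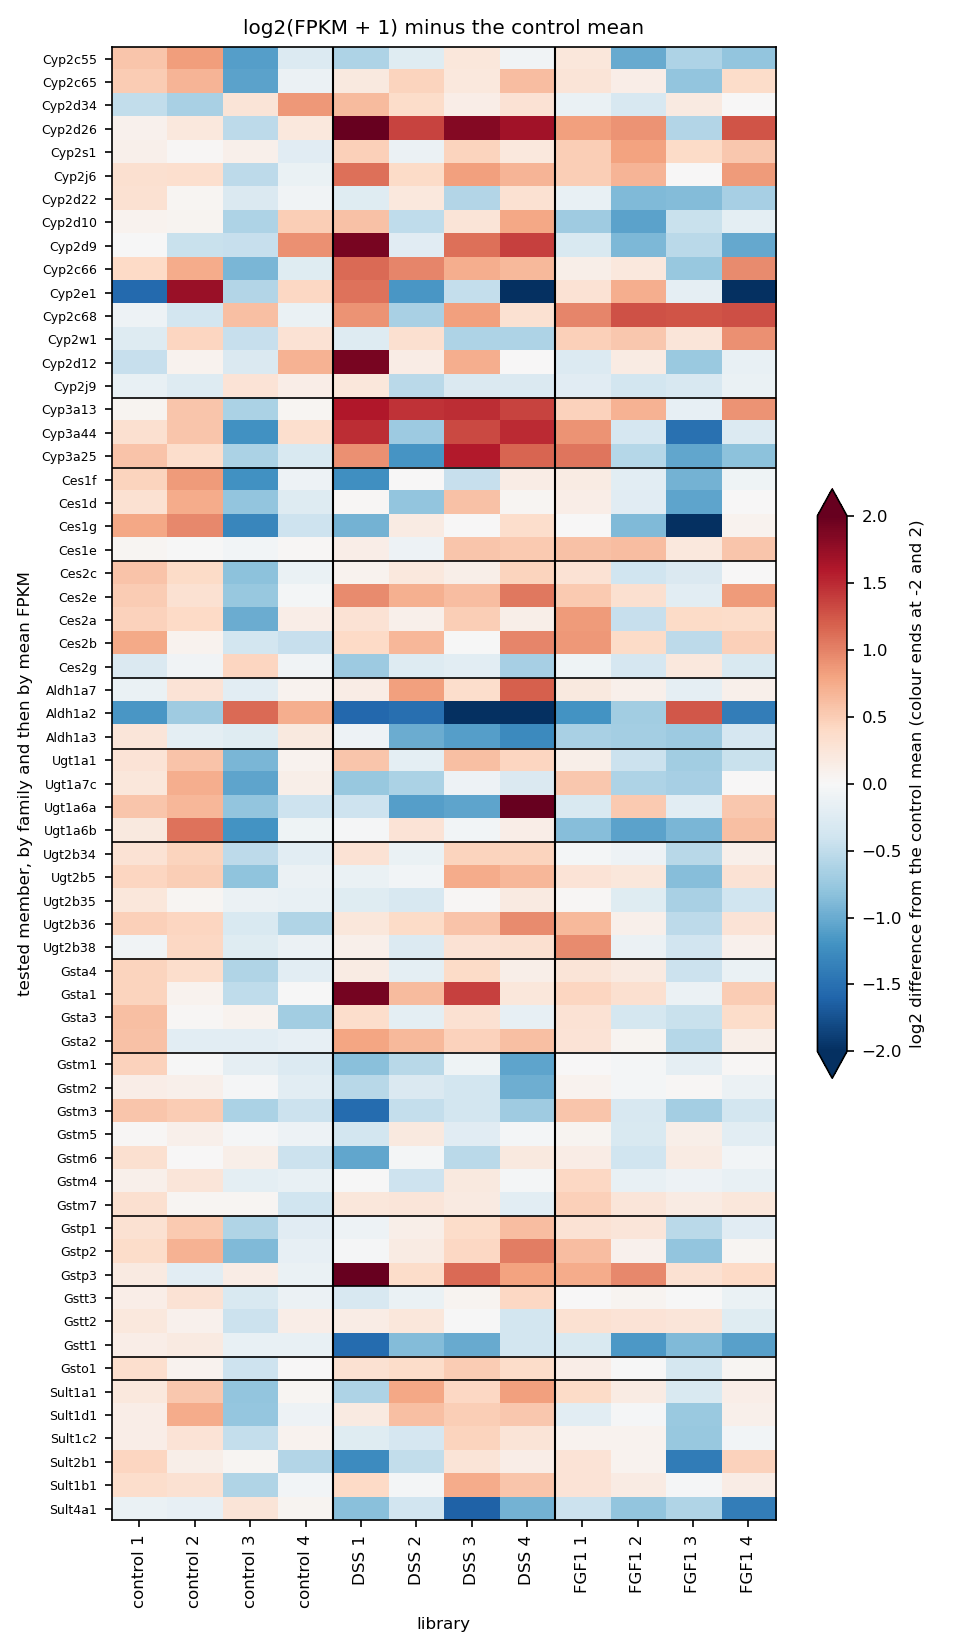
Level of each of the 63 tested members (rows, grouped by family) in the 12 libraries (columns), as log2(FPKM + 1) minus the mean of the 4 control libraries, with red above and blue below it. Control 3 and FGF1 3 are blue for most rows, while Cyp3a13 and Cyp2d26 are red in all 4 DSS libraries.

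Many members had their lowest value in the same library of a group. Control 3, the library with the most smooth muscle RNA, was the lowest of the 4 controls for 42 of 63 members (66.7%), against 26.1% of all genes tested, and FGF1 3 was the lowest of its group for 41 (65.1%), against 23.6% of all genes. On the log2(FPKM + 1) scale the smooth muscle list averaged 8.50 in control 3 and 8.10 in FGF1 3, compared with 6.86 and 6.88 in controls 1 and 2. In control 4, where it was 8.05, 12 members had their lowest control value. The epithelium list averaged 7.69 to 7.81 in control, 7.87 to 8 in DSS and 7.92 to 8.09 in FGF1, so that every DSS and FGF1 library lay above every control. The part of muscle and epithelial RNA in the members' levels was not tested. Values with these libraries left out are given beside the calls below.

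**Figure D2:**
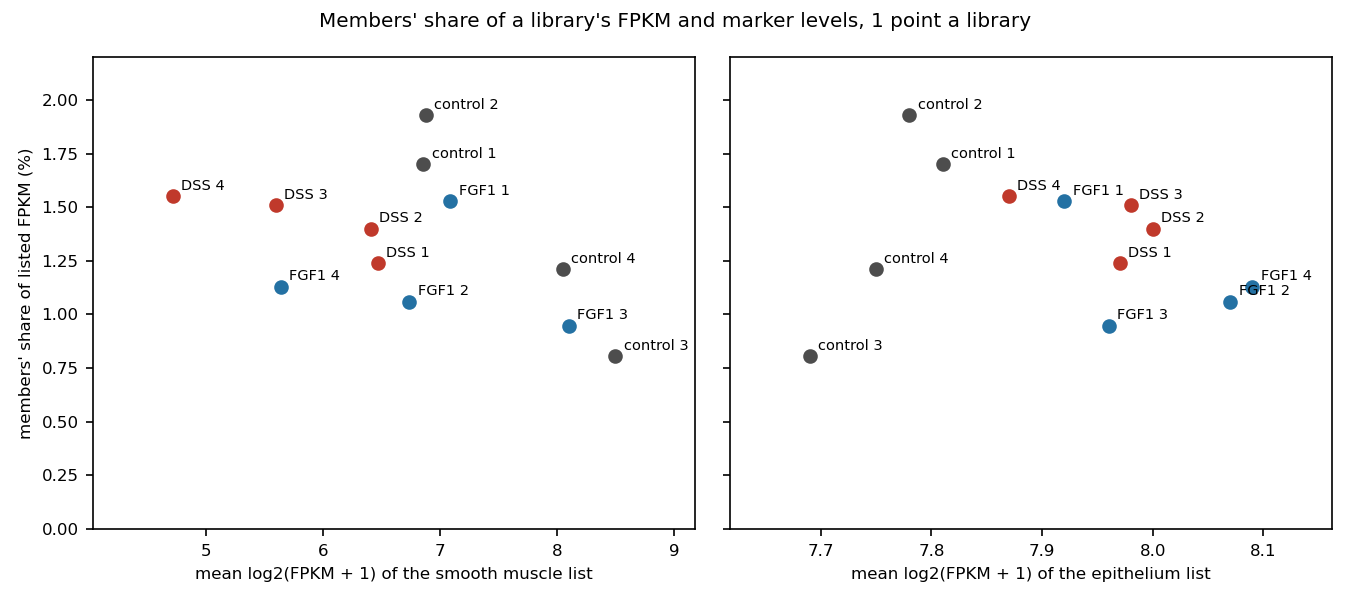
Members' share of a library's listed FPKM (vertical axis, %) against the mean log2(FPKM + 1) of 15 smooth muscle genes (left) and 18 epithelial genes (right), 1 point for each of the 12 libraries. Control 3 and FGF1 3, with the highest smooth muscle levels, have the lowest shares, 0.805% and 0.948%, while controls 1 and 2 lie above every other library.

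The first comparison, DSS against control, asks which detoxification genes differed in the colon samples labelled DSS. Of 63 members tested, 3 rose, 4 fell and 56 did not pass the test. The cytochromes Cyp3a13 and Cyp2d26 rose most, 2.77-fold and 3.69-fold on the scale of FPKM + 1, and the glutathione transferase Gstp3 rose from a low level. The transferases Gstt1 and Gstm2, the retinaldehyde dehydrogenase Aldh1a3 and the sulfotransferase Sult4a1 fell. The share called was 2.23% higher and 10.1% lower over all 12578 genes, and members called in either direction made up 11.1% of those tested against 12.3% of all genes, so the number of calls is near the background. The median log2 fold change was 0.25 over the 63 members and −0.07 over all genes, with 40 members positive and 23 negative. The members' median was 0.04 without control 3, with 34 positive and 29 negative, 0.13 without DSS 4 and 0.04 without DSS 3 and DSS 4. Centred on the epithelium list it was 0.06, beside −0.27 for all genes, with median-of-ratios scaling 0.39, and with the smooth muscle level as a covariate −0.20, with 18 positive and 45 negative. The DSS and control values did not overlap in 5 members with DSS above, against 3.67% of all genes, and in 4 with DSS below, against 13.3% of all genes.

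These calls depended on how libraries were scaled and which were kept. With a median-of-ratios scaling 6 members were higher and 2 lower, as the median of all genes moved from −0.07 to 0.05 and the split of all calls from 280 higher and 1269 lower to 677 and 986. Centred on the epithelium list, 3 were higher and 7 lower, with 123 genes higher and 3067 lower in all. Without control 3 and FGF1 3 the call held for Cyp2d26 and Cyp3a13 alone. Without DSS 3 and DSS 4, the libraries with the least fibroblast RNA, 0 members passed. With the smooth muscle level as a covariate 0 members passed. Calls over all genes also fell steeply in both settings, as listed in the last section, so 0 members is near the background there. The mean smooth muscle level did not overlap between DSS (4.72 to 6.47) and control (6.86 to 8.5). The covariate can therefore hardly be separated from the group, and no conclusion is drawn from DSS against control values fitted with it. For Cyp3a13 limma's adjusted p was 0.0564 and the log2 fold change 1.52 without DSS 3 and DSS 4, and 0.134 and 0.94 with the covariate.

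Among phase I enzymes, Cyp3a13, a Cyp3a form expressed in mouse intestine and an oxidase of many drugs and steroids, lies at chromosome 5, 137892932 to 137921619, on the minus strand. Its level was 43.8, 62.5, 26.8 and 43.5 FPKM in control, 130, 117, 120 and 110 in DSS, and 58.7, 69.5, 37.5 and 79.5 in FGF1. Every DSS library was above every other library, with nearly equal levels among the 4. The log2 fold change of DSS against control was 1.47 ± 0.25 (SE), with an adjusted p of 0.00488 in limma. The gene has a single listed transcript, and none of its 50-base words occurs in another annotated gene. The Cyp3a family sum went with it, at 53.2 ± 18.3 in control against 138 ± 14.3 in DSS, with FGF1 at 69 ± 20 (SD, n = 4). The other tested members, Cyp3a25 and Cyp3a44, had positive log2 fold changes under both other scalings too but did not pass, and both were low in DSS 2, at 0.718 and 2.71 FPKM.

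Cyp2d26, a mouse member of the Cyp2d group (chromosome 15, 82790101 to 82794294, minus strand), stood at 21.9, 23.9, 14 and 23.8 FPKM in control. In DSS it was 137, 53.5, 75.4 and 68.0, and in FGF1 36.8, 39.1, 13.3 and 50.2. DSS overlapped neither other group, with DSS 1 the highest. The log2 fold change of DSS against control was 1.89 ± 0.38 (adjusted p 0.00995, limma). Counted from transcription start events alone, its log2 fold change was 1.08 and its call was lost (adjusted p 0.119). The adjusted p was 0.0844 without DSS 3 and DSS 4 and 0.226 with the smooth muscle covariate. Only 9.49% of its 50-base words are shared with another gene.

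**Figure D3:**
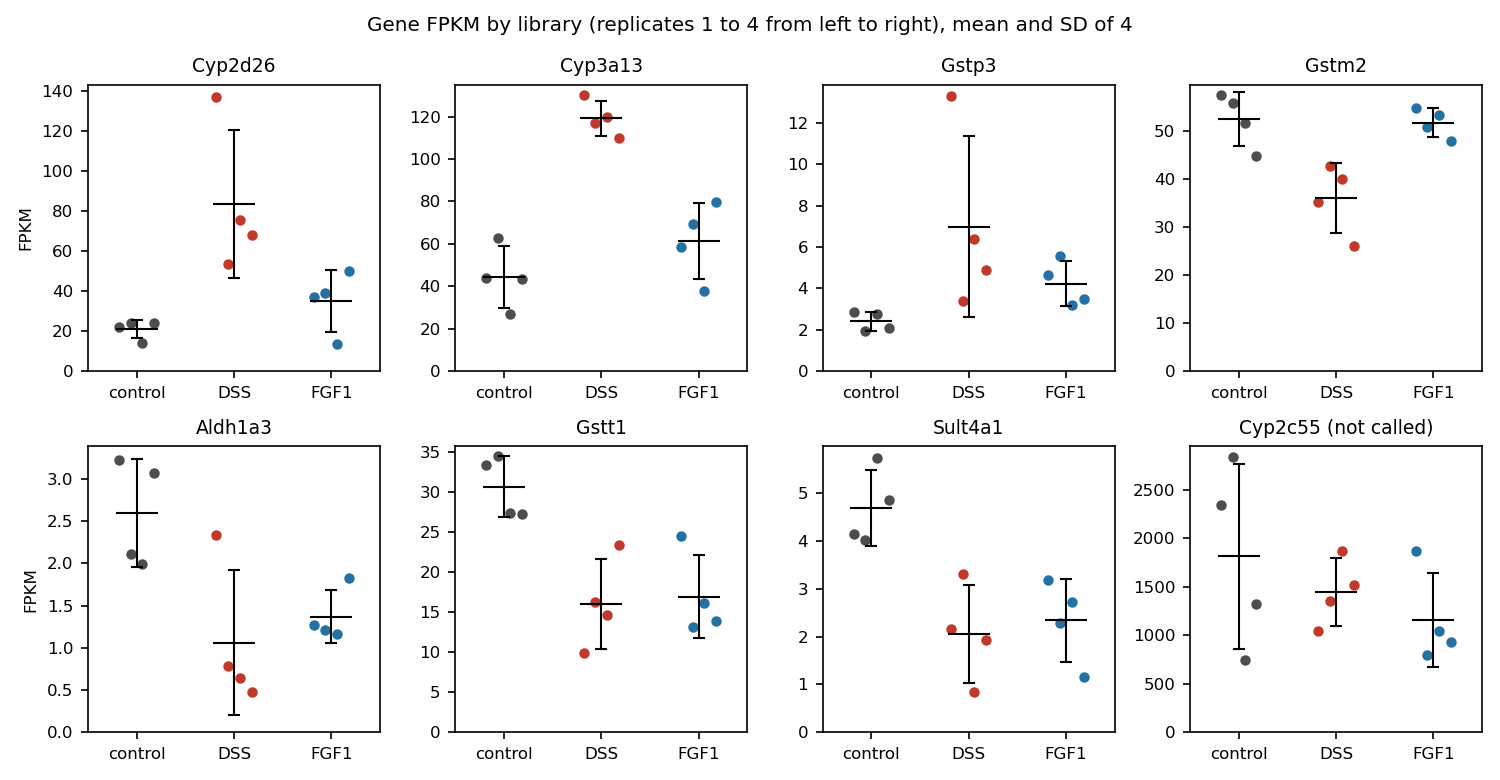
FPKM of the 7 members that passed the test for DSS against control, and of the most abundant member Cyp2c55, in each library (points; control grey, DSS red, FGF1 blue), with the mean and SD of 4 libraries (bar). Cyp3a13 and Cyp2d26 separate DSS from both other groups, while Cyp2c55 overlaps in all 3.

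Cyp2c55, a cytochrome that oxidises arachidonic acid and is abundant in mouse colon, was the highest member by far. It measured 2340, 2840, 745 and 1320 FPKM in control, 1040, 1350, 1870 and 1520 in DSS, and 1870, 792, 1040 and 927 in FGF1. The groups overlapped, and within control alone the highest library was 3.81 times the lowest. Its adjusted p was 0.819 for DSS against control (limma). The Cyp2 family sum was 2200 ± 1020 (control), 1970 ± 299 (DSS) and 1550 ± 499 (FGF1; SD, n = 4 each). Of 15 Cyp2 genes tested, Cyp2d26 was the only call, 10 were positive and 5 negative, and the median log2 fold change was 0.34, or 0.18 without DSS 1. Cyp2j6, an epoxygenase of the Cyp2j group picked out after its values were seen, was 21.4, 21.6, 11.5 and 15.3 FPKM in control and 37.5, 22.4, 30.5 and 27.6 in DSS, without overlap, but missed the threshold (adjusted p 0.0542, limma).

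The carboxylesterases, which cleave ester drugs and lipids, gave no call in 9 genes tested. Ces2c, the leading Ces2 gene, was 228 ± 87.7 FPKM (control), 249 ± 30.8 (DSS) and 203 ± 44.6 (FGF1; SD, n = 4 each). Ces1f, the leading Ces1 gene, was 93.3 ± 48.8, 66.9 ± 25.5 and 70.4 ± 20.6 in the same order. For both, the differences between groups were smaller than the spread within control. Ces2e, chosen after its values were seen, was 187, 163, 77.3 and 128 FPKM in control and 255, 216, 202 and 275 in DSS. Those groups did not overlap, and the adjusted p was 0.0652 (limma). Ces2c shares 42.2% of its 50-base words with other genes, most of them with the pseudogene Ces2d-ps, so its level is less certain than that of Ces2e, which shares 3.30%.

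Several Aldh1a enzymes, Aldh1a3 among them, make retinoic acid from retinaldehyde. Aldh1a3 (chromosome 7, 66390890 to 66427517, minus strand) fell in DSS from a low level. It was 3.22, 2.11, 1.99 and 3.07 FPKM in control, 2.33, 0.784, 0.649 and 0.473 in DSS, and 1.27, 1.21, 1.16 and 1.83 in FGF1. DSS 1 lay within the control range while the other DSS libraries lay below it. The log2 fold change was −0.87 ± 0.24 (adjusted p 0.0349, limma), and the call was lost without control 1, 3 or 4, without DSS 2, 3 or 4, or without FGF1 2 (adjusted p 0.05 to 0.101). Aldh1a7, the family's leading gene, was 6.36 ± 1.14 FPKM (control), 10.7 ± 3.88 (DSS) and 6.60 ± 0.827 (FGF1; SD, n = 4 each), and did not pass. Aldh1a2, picked after its values were seen, was highest in the libraries rich in muscle RNA. It was 1.02, 1.74, 8.92 and 6.49 FPKM in control, 0.523, 0.586, 0.0856 and 0.112 in DSS, and 0.973, 1.79, 9.64 and 0.729 in FGF1.

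Among phase II enzymes, the UDP-glucuronosyltransferases, which attach glucuronic acid to bilirubin, steroids and plant phenols, gave no call in 9 genes tested. Ugt1a1, the bilirubin-conjugating form, was 215, 266, 93.9 and 186 FPKM in control, 261, 156, 271 and 239 in DSS, and 194, 132, 110 and 131 in FGF1. The groups overlapped. Ugt2b34, the leading Ugt2 gene, was 138 ± 41.8 (control), 162 ± 28.2 (DSS) and 122 ± 22.5 (FGF1; SD, n = 4 each). The Ugt1a genes are made from a single locus with separate first exons joined to common exons. Of the 2224 exonic bases of the Ugt1a1 transcript, 1311 (58.9%) are shared with another Ugt1a gene. The part of these shared exons in the deposited values was not tested. Ugt1a6a was 90.6 FPKM in DSS 4 and at most 2.44 in the other libraries, and Ugt1a5 was 42.5 in FGF1 1 and at most 0.0922 elsewhere. The sum over the Ugt1a genes was 322, 420, 137 and 284 in control, 316, 215, 356 and 404 in DSS, and 367, 192, 167 and 226 in FGF1, and the groups overlapped.

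The glutathione S-transferases were divided by class. All 3 Gstp genes had positive log2 fold changes in DSS against control, under both other scalings too. All 4 Gsta genes were positive as well, but 2 of them, Gsta3 and Gsta4, turned negative when centred on the epithelium list. Of 7 Gstm genes 6 were negative, against 4 with median-of-ratios scaling, where Gstm4 and Gstm5 turned positive, and 7 when centred on the epithelium list. Only Gstp3, Gstm2 and, in the theta class, Gstt1 passed the test. The median log2 fold change was 0.37 for Gsta, 0.40 for Gstp and −0.36 for Gstm, beside −0.07 for all genes. With median-of-ratios scaling these medians were 0.48, 0.54 and −0.23, and centred on the epithelium list 0.18, 0.20 and −0.55. The Gstp median was 0.10 without control 3, 0.63 without control 2, 0.19 without DSS 4 and, with the smooth muscle covariate, −0.33. The Gstm median was −0.13 without DSS 1, and the Gsta median was 0.04 with the covariate.

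Gstm2, a mu-class transferase (chromosome 3, 107981702 to 107986453, minus strand), was 57.5, 56.0, 51.7 and 44.9 FPKM in control. It was 35.2, 42.8, 40.1 and 26.1 in DSS and 54.8, 51.0, 53.4 and 47.9 in FGF1. DSS lay below both other groups without overlap. It fell by 0.55 ± 0.14 on the log2 scale (adjusted p 0.0279, limma), and the call was lost without control 1, 2 or 3 or without DSS 4 (adjusted p 0.0545 to 0.0656) and with median-of-ratios scaling (0.0895). Gstm1, the leading mu-class gene, was 177, 128, 114 and 107 FPKM in control, 71.8, 87.0, 121 and 61.4 in DSS, and 129, 125, 114 and 131 in FGF1. It overlapped through DSS 3 and missed the threshold (adjusted p 0.058, limma). The Gstm sum was 355, 302, 244 and 227 in control, 161, 215, 240 and 165 in DSS, and 307, 254, 249 and 258 in FGF1, so that DSS lay below all 4 FGF1 libraries and overlapped with control 4.

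Gstt1, a theta-class transferase (chromosome 10, 75783813 to 75798584, minus strand), was low in both DSS and FGF1. It was 33.4, 34.5, 27.4 and 27.3 FPKM in control, 9.86, 16.3, 14.7 and 23.4 in DSS, and 24.5, 13.2, 16.1 and 13.9 in FGF1. All 8 libraries of those groups lay below all 4 controls. The log2 fold change of DSS against control was −0.94 ± 0.24 (adjusted p 0.0245, limma), and it was lost without control 1, 2 or 4 or without DSS 3 (adjusted p 0.0506 to 0.0674). With median-of-ratios scaling the adjusted p was 0.0653. The other theta genes did not follow, Gstt3 being 37.9 ± 7.03 FPKM (control), 38.2 ± 8.83 (DSS) and 36.9 ± 2.05 (FGF1; SD, n = 4 each). None of the 50-base words of Gstt1 occurs in another gene, whereas Gstt3 shares 20.1% of its own.

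Gstp3, a pi-class gene (chromosome 19, 4057477 to 4059569, minus strand), was 2.85, 1.92, 2.75 and 2.1 FPKM in control, 13.3, 3.37, 6.41 and 4.89 in DSS, and 4.63, 5.56, 3.19 and 3.48 in FGF1. Every DSS and every FGF1 library lay above every control, with DSS 1 well above the rest. The log2 fold change of DSS against control was 1.10 ± 0.30 (adjusted p 0.0345, limma). The call was lost when any 1 of the 4 controls was left out, or without DSS 3 or DSS 4 (adjusted p 0.0508 to 0.0889), and with start events alone (log2 fold change 0.45, adjusted p 0.527). Gstp1, the major pi-class enzyme, was far more abundant and overlapped between groups, at 407 ± 139 FPKM (control), 472 ± 103 (DSS) and 383 ± 101 (FGF1; SD, n = 4 each). Gstp1 and Gstp2 share 31.3% and 46.8% of their 50-base words with each other, and Gstp3 shares none. In the alpha class Gsta4, which detoxifies lipid peroxidation products, was 60.4 ± 19.7, 63.4 ± 10.5 and 57.7 ± 12.5 FPKM in control, DSS and FGF1 (SD, n = 4). Gsta1 shares 89.7% of its words with other genes and is uncertain. The omega-class Gsto1 was 459, 383, 275 and 367 FPKM in control, 449, 472, 519 and 470 in DSS, and 402, 364, 286 and 376 in FGF1. DSS lay above all 4 FGF1 libraries and overlapped with control 1.

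Of 6 sulfotransferases tested only Sult4a1 was called, a member known mainly from brain (chromosome 15, 84076097 to 84105754, minus strand). It was 4.13, 4.02, 5.73 and 4.84 FPKM in control, 2.15, 3.31, 0.835 and 1.92 in DSS, and 3.18, 2.28, 2.73 and 1.16 in FGF1, so that both groups lay below control without overlap. Its log2 fold change in DSS was −0.95 ± 0.26 (adjusted p 0.0345, limma), and the call was lost when any 1 of the 4 controls was left out or without DSS 3 or DSS 4 (adjusted p 0.0518 to 0.0931). Sult1a1, the phenol sulfotransferase that led the family, was 281, 352, 141 and 250 FPKM in control, 158, 417, 324 and 431 in DSS, and 316, 272, 197 and 266 in FGF1. The groups overlapped, and DSS 1 lay far below the other 3 DSS libraries.

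**Figure D4:**
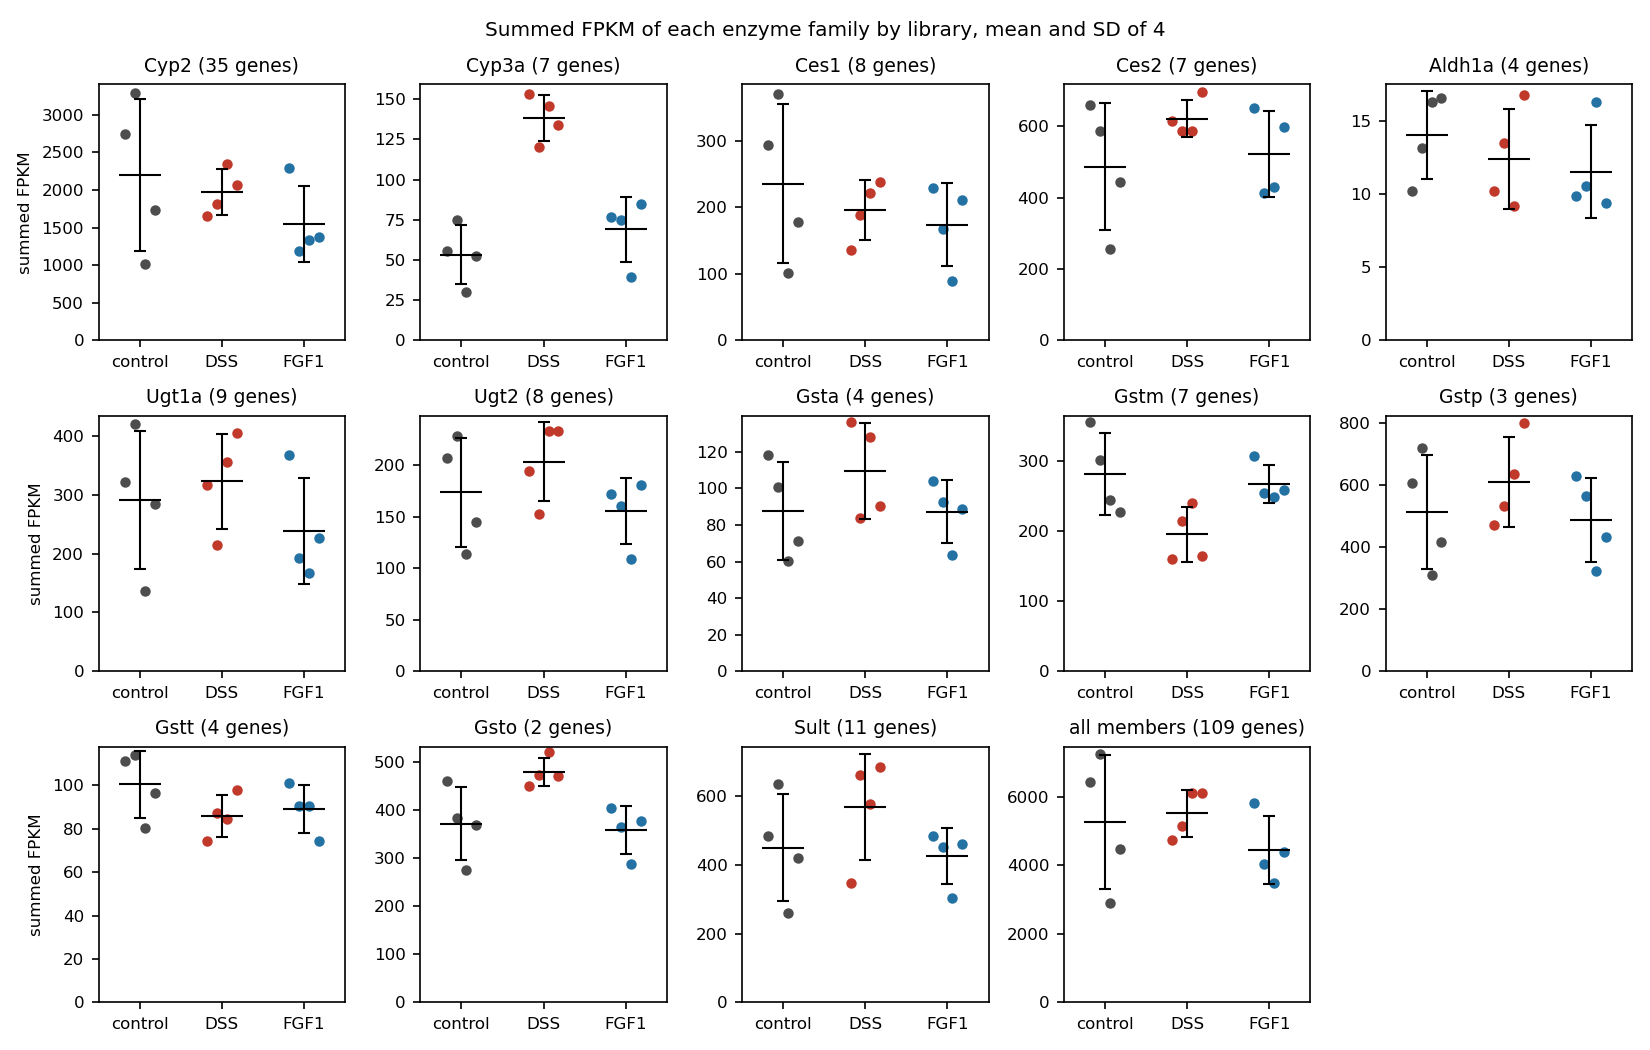
Summed FPKM of the listed members of each of the 13 families and of all 109 members, in each library (points; control grey, DSS red, FGF1 blue), with the mean and SD of 4 libraries (bar). Only the Cyp3a sum separates DSS (120 to 153) from control (30.0 to 74.7) and FGF1 (39.7 to 84.8) together.

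FGF1 was compared with control and with DSS. No member was called in either comparison (limma), and all 13 family sums of FGF1 overlapped control. Against control, 0 of 63 members passed, where over all genes 1 was higher (0.00795%) and 9 lower (0.0716%). An unadjusted p under 0.05 was found in 8 of the 63 members and in 1753 of all 12578 genes (limma). The members' median log2 fold change was −0.04, as was that of all genes. FGF1 lay above control without overlap in 4 members, against 3.66% of all genes, and below it in 3, against 6.61%. Those above were Ces1e, Cyp2c68, Cyp2s1 and Gstp3, and those below were Aldh1a3, Gstt1 and Sult4a1, all chosen here for the lack of overlap. Centred on the epithelium list, 4 members were lower (Aldh1a3, Cyp2d22, Gstt1 and Sult4a1), which is 6.35% of those tested, against 10.5% of all genes called in that setting, and 0 passed in every other setting tried.

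Against DSS, 0 of 63 passed, where over all genes 5 were higher (0.0398%) and 2 lower (0.0159%), and no alternative setting gave a call. An unadjusted p under 0.05 was found in 16 of the 63 members and in 1561 of all 12578 genes (limma). The members' median log2 fold change was −0.25, beside 0.05 over all genes. FGF1 lay below DSS without overlap in 6 members, against 1.83% of all genes, and above it in 3, against 4.45%. Those below were Cyp2d26, Cyp2d9, Cyp3a13, Gsta2, Gsto1 and Sult1d1, and those above Aldh1a2, Cyp2c68 and Gstm2. Cyp2d9, a Cyp2d enzyme named for that reason, was 33.0, 6.79, 18.5 and 22.5 FPKM in DSS and 6.32, 3.87, 5.23 and 3.48 in FGF1, with 8.02, 5.64, 5.62 and 16.2 in control. It shares 26.2% of its 50-base words with related genes. All 3 Cyp3a, all 4 Gsta and all 3 Gstp genes had negative log2 fold changes, under both other scalings too, and all 7 Gstm genes positive ones, except that Gstm5 turned negative under both other scalings. The 2 comparisons that involve DSS share the DSS libraries, so these directions are not separate evidence of those seen against control. Without FGF1 3 the members' median was −0.07, without DSS 3 and DSS 4 it was −0.09, and with the smooth muscle covariate it was 0.07. The Gstp median was −0.41, or −0.15 without FGF1 3, −0.20 without DSS 4 and 0.04 with the covariate.

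**Figure D5:**
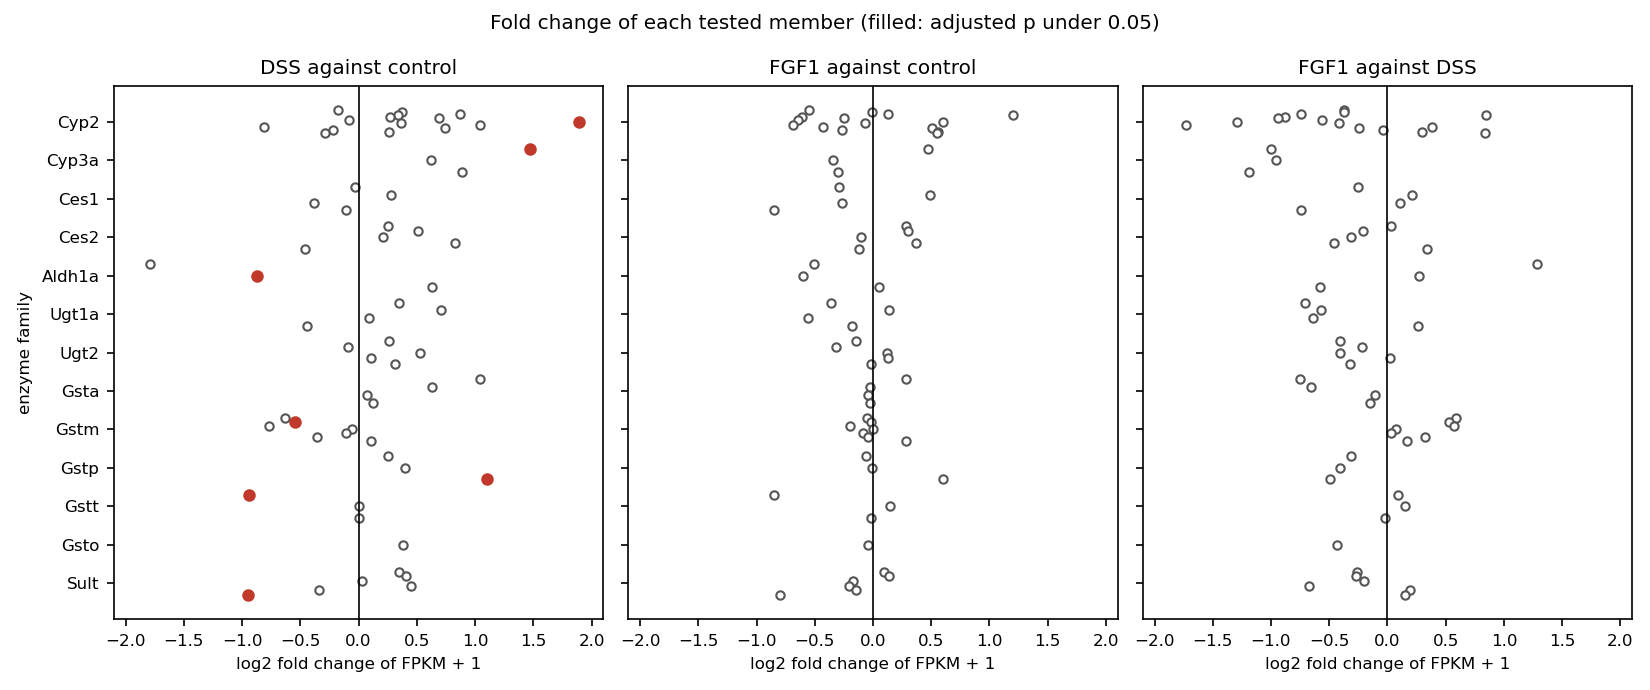
Log2 fold change of FPKM + 1 for each of the 63 tested members (points, by family on the vertical axis) in the 3 comparisons, with filled red points for an adjusted p under 0.05. The 7 filled points all lie in the DSS against control panel, from −0.95 (Sult4a1) to 1.89 (Cyp2d26), and the panels with FGF1 hold open points only.

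The genes that sense foreign compounds and those that feed or extend the pathway were read from lists that hold no member. Unlike the members' calls, the calls of these genes were not followed through the alternative settings. Of 15 sensor and partner genes tested, 2 rose in DSS against control and none fell. That is 13.3% called, against 12.3% of all genes (2.23% higher and 10.1% lower). Nr1i2, which encodes PXR, the receptor known to drive Cyp3a genes, was 31.0, 28.3, 21.6 and 26.9 FPKM in control, 42.5, 40.6, 39.6 and 36.5 in DSS, and 34.0, 36.0, 25.5 and 32.8 in FGF1. DSS lay above both other groups, and the log2 fold change against control was 0.55 ± 0.13 (adjusted p 0.019, limma). Nr1h4, which encodes the bile acid receptor FXR, was 53.1 ± 19.2 (control), 116 ± 28.1 (DSS) and 57.8 ± 20.2 (FGF1; SD, n = 4 each), with a log2 fold change of 1.16 ± 0.33 in DSS against control (adjusted p 0.0399, limma). Nfe2l2, which encodes NRF2, lay between 66.2 and 143 FPKM, Hnf4a between 134 and 203, and Ahr between 1.91 and 3.28, and none was called. Nr1i3, which encodes CAR, and the AHR target Cyp1a1, named outside that rule, did not reach the level needed for the test, Cyp1a1 being at most 0.352 FPKM.

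Of 17 genes for electron donors and cofactors, Gsr alone was called in DSS against control. Glutathione reductase, its product, keeps glutathione reduced, and its mean level was 39.8 FPKM in control (SD 2.80), 54.2 in DSS (SD 8.04) and 42.7 in FGF1 (SD 3.73; n = 4 each; log2 fold change 0.43 ± 0.12, adjusted p 0.0337, limma). Por, the electron donor of microsomal cytochromes P450, named here outside the rule for named genes, lay between 52.7 and 109 FPKM. Among 32 other phase I genes the epoxide hydrolases went opposite ways. Ephx2, the soluble form, was 15.1, 18.1, 8.10 and 11.2 FPKM in control and 27.8, 20, 23.1 and 25.9 in DSS, whereas Ephx1, the microsomal form, was 13.6, 15.1, 18.9 and 16.7 in control and 8.80, 6.44, 7.11 and 5.47 in DSS. Neither pair of groups overlapped, and the log2 fold changes were 0.88 ± 0.23 (adjusted p 0.03) and −1.11 ± 0.23 (adjusted p 0.0109) in limma.

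Among 18 other phase II genes, Ugt8a, a ceramide galactosyltransferase, was higher in DSS (control 0.230 ± 0.176 FPKM, DSS 1.96 ± 0.425, adjusted p 0.0125, limma). Nnmt, which methylates nicotinamide, was lower (2.04 ± 0.728 and 0.591 ± 0.547, adjusted p 0.0227, limma). Of 19 transporters, Slco3a1 was lower, at 6.11 ± 2.11 FPKM in control and 1.70 ± 0.833 in DSS (SD, n = 4; adjusted p 0.00816, limma). The median log2 fold changes of the 5 lists in DSS against control were −0.05 for sensors, 0.24 for cofactor supply, 0.22 for other phase I enzymes, 0.11 for other phase II enzymes and 0.00 for transporters, beside −0.07 for all genes. In the same order 13.3%, 5.88%, 6.25%, 11.1% and 5.26% of the tested genes were called, against 12.3% of all genes. The number of calls was therefore near or below the background in every list. In FGF1 against control 0.0795% of all genes were called, and in FGF1 against DSS 0.0557%. None of the 101 tested genes of these lists was called in either comparison (limma). The unadjusted p was under 0.05 in 10 of them for FGF1 against control and in 12 for FGF1 against DSS. Of all 12578 genes it was so in 1753 and 1561.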

How the data were processed

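Per the labels' protocols, each library started from 5 µg of total RNA, selected on oligo(dT) beads. The tools, per the submitters' processing notes, were HISAT2 2.0.4, StringTie 1.3.4d, cutadapt 1.9 and edgeR, with build GRCm38. Their roles and settings are not stated there. The authors deposited transcript FPKM values, attached to transcript structure events, so transcripts that enter no event are absent and read counts are not given. The deposited FPKM of distinct transcripts were summed per gene. Symbols and positions came from GENCODE vM21. limma 3.58.1 in R 4.3.3 (two-sided, eBayes with trend) was fitted to log2(FPKM + 1) of the 12578 genes at or above 1 FPKM in 4 or more libraries, all 12 libraries together. P-values were adjusted by Benjamini-Hochberg over those genes, with 0.05 as threshold. Because 1 is added, fold changes of low genes come out too small. The script was tested on simulated data.

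Named members are those called in any comparison and the leading member of each family. Other genes are the called ones of the pathway lists, listed sensors and epithelial markers. Genes named outside that rule are said to be so. The members and lists were chosen with earlier results of these data known. Words of 50 bases were taken from GENCODE vM21 transcripts. Alternatives covered the pseudocount, the filter, start events, scaling, covariates, the block and left-out libraries.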

Additional observations from a re-analysis of the deposited data

Results flagged for a closer look

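In each group of 4 libraries, the gap between an extreme value and its nearest neighbour was set against the whole range. Chance marks about 1 in 20 independent groups, and 17 of 243 groups were marked. The 243 include groups that were passed over because no library reached 1 FPKM. They also include family sums beside the members that make them up, so the groups are not independent. In FGF1 3, the muscle-rich FGF1 library, Aldh1a2 stood high at 9.64 FPKM (next 1.79), Ces1e low at 10 (next 13.1) and Ugt2b5 low at 11.8 (next 26.0), and the Aldh1a sum was high at 16.3 (next 10.6). In FGF1 1, Cyp3a25 was high at 7.24 (next 1.64), Gstm4 at 11.4 (next 7.63), Ugt1a5 at 42.5 (next 0.0627) and the Gstm sum at 307 (next 258), while Cyp2c68 was low at 4.02 (next 5.12).

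FGF1 4 was high for Aldh1a3 at 1.83 (next 1.27) and Ugt1a6b at 2.64 (next 0.322), and low for Gstt2 at 26.5 (next 37.1). Among DSS libraries, Aldh1a3 was high in DSS 1 at 2.33 (next 0.784), Cyp3a44 low in DSS 2 at 2.71 (next 14.3), Gstm7 low in DSS 4 at 3.54 (next 4.99) and Ugt1a6a high in DSS 4 at 90.6 (next 0.637). Gsta2 was high in control 1 at 1.88 (next 0.714).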

How the results depend on the processing

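No member's call reversed in any alternative tried. Of 25 alternatives, the call of Cyp3a13 held in 23 and that of Cyp2d26 in 22, while the other 5 calls held in 13 to 16 of 24 or 25. For DSS against control, 7 members were called, and 3 with start events, 0 with the smooth muscle covariate, 0 without DSS 3 and DSS 4, 2 without control 3 and FGF1 3, and 3 to 10 when 1 library was left out. Over all genes 1549 were called, and 727 with start events, 3190 centred on the epithelium list, 29 with the covariate, 185 without DSS 3 and DSS 4, 915 without control 3 and FGF1 3, and 697 to 1982 when 1 library was left out. For FGF1 against control, 4 members were called when centred on the epithelium list. Over all genes 10 were called there, and 0 with a pseudocount of 0.1, 1 with 0.5, 50 with no filter, 0 with FPKM of at least 1 in 8 libraries, 1 with start events, 1325 centred on the epithelium list, 38 with only the compared groups, 28 without the trend, 2 with the covariate, 38 without DSS 3 and DSS 4, 20 without control 3 and FGF1 3, and 0 to 83 when 1 library was left out. For FGF1 against DSS, 7 genes were called in all, and 18 with FPKM of at least 1 in 8 libraries, 1 with start events, 15 with median-of-ratios scaling, 3 with only the compared groups, 2 with the covariate, 0 without DSS 3 and DSS 4, 2 without control 3 and FGF1 3, and 0 to 43 when 1 library was left out. With the replicate block 1028, 1 and 2 genes were called in the 3 comparisons, and 6, 0 and 0 members. The labels do not say what the replicate numbers mark, and a few correlations cannot settle whether they pair the samples. Correlations of same-numbered deviations ran from −0.192 to −0.0684 for DSS and control and from −0.217 to 0.119 for FGF1 and DSS. For FGF1 and control they ran from −0.0725 to 0.399, the highest being that of FGF1 3 with control 3. Family sums moved by less than the spread between replicates in 505 of 507 alternatives. Most of these left out 1 of 4 libraries, which can move a group mean only little beside that spread. The count therefore cannot show that the sums are stable. The causes of these differences were not tested. Depth is unknown, since FPKM holds no counts.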
